A study of Mus musculus with 2 samples.

Results

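The club-type secretory genes are 8 listed genes of the 32285 in the deposited feature table: the oxidase Cyp2f2, the WAP-domain protein Wfdc2, the secretoglobins Scgb3a2, Scgb3a1 and Scgb1a1, the carbonyl reductase Cbr2, lactoferrin (Ltf) and the chemokine Cxcl17. They were taken by symbol, and all 8 were found. The rule itself uses no measured value, but the list was chosen with earlier results of these data known. Counts of called genes set beside all genes therefore describe the list and are no test of it. The genes were followed through the layers of the esophageal epithelium in a library labelled wild type and through the cell states of a library labelled p63-KO. The label club-type refers to the airway cell these genes are known from. Scgb1a1, the gene that defines a club cell, had 6 UMIs (unique molecular identifiers, counted RNA molecules) in all wild-type and 1 in all p63-KO epithelial-like cells.

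Club cells are dome-shaped secretory cells that line the small airways. They secrete secretoglobins, small proteins that make up much of the airway fluid, together with protease inhibitors and antimicrobial proteins, and they detoxify inhaled compounds with enzymes such as Cyp2f2. Airway and esophageal epithelium arise from neighbouring parts of the foregut tube, and p63, the product of Trp63, is the transcription factor that basal cells of stratified epithelia depend on.

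Esophageal epithelium of C57BL/6 embryos at E18.5 was profiled by droplet single-cell RNA sequencing, 1 library per group. The p63-KO embryos were homozygous for a p63-CreER allele (p63-CreER/p63-CreER). The control library, called wild type in its title, has the genotype p63-CreER, so it carried the targeted allele as well, and its embryos were littermates. Cells with Xist RNA but no Y-linked RNA, and the reverse, occurred in either library, which means that each was made from embryos of both sexes. The muscle layer was taken off by hand and the epithelium dissociated with dispase and trypsin. No group had a replicate: every difference described here is a difference between cells or clusters of these 2 libraries, no test between groups was possible, and all intervals (95%, exact) cover counting error only.

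After filtering and removal of doublets, 5519 wild-type cells (median 10924 UMIs) and 2375 p63-KO cells (median 19355 UMIs) remained. Epithelial-like cells, named from Epcam, Cdh1, keratins and related markers, numbered 5369 in the wild type (median 11048 UMIs) and 1683 in p63-KO (median 25309 UMIs). The p63-KO library also held 513 fibroblast-like cells (median 10809 UMIs), against 10 in the wild type. Krt5, a basal keratin, had 765 UMIs per 1000000 UMIs (counts per unit of that size, CPM) in wild-type and 0.235 CPM in p63-KO epithelial-like cells. Trp63 itself had 302 and 118 CPM; since 3' ends were counted, such UMIs need not come from the disrupted part of the gene and serve as no check of the label. Of 18 joint epithelial-like clusters, 1 (ciliated-like, 55 p63-KO and 26 wild-type cells) held more than 4 cells of each library, so that a state found in 1 library cannot be told apart from that library. The libraries shared 8 cell barcodes, 5 of them among the kept cells.

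In the mm10 genome (GENCODE M21 annotation) the protein-coding genes lie at chr7:27119909-27133660 (Cyp2f2), chr2:164562413-164568510 (Wfdc2), chr11:49663610-49665118 (Scgb3a1), chr19:9083636-9087958 (Scgb1a1), chr11:120729489-120732114 (Cbr2), chr9:111019271-111042767 (Ltf) and chr7:25400053-25412886 (Cxcl17). Cyp2f2 overlaps Gm15883 and Cxcl17 overlaps 4732471J01Rik, each on the opposite strand. One UMI stands for 1 RNA molecule caught at its 3' end, so CPM values of different genes are set side by side as counts, not per length.

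The 8 genes did not behave as 1 group in p63-KO epithelial-like cells. Wfdc2, Cbr2, Ltf and Cxcl17 were higher than in the wild type, Cyp2f2 stood at almost the same level, Scgb3a2 was nearly absent, and Scgb3a1 and Scgb1a1 were close to 0 in both. A gene was taken as measured at 5 CPM or more in either library, which held for 6 of the 8 genes and for 11772 genes in all. Of the 6, 4 passed a 2-fold difference upward in p63-KO, against 15.0% of all measured genes, and 1 passed it downward, against 8.84%. The median log2 ratio of p63-KO to wild type (CPM with 1 added) was 1.83 over the 6 genes and -0.02 over all measured genes. Since the list was chosen with earlier results known, these values beside all genes are a description only.

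Wfdc2, a small secreted protein with WAP domains, the fold of several protease inhibitors, was the most abundant of the 8 in p63-KO. Wild-type cells had 690.7 CPM (684.5 to 697.0), p63-KO cells 4383 CPM (4368 to 4398), 6.35-fold more (6.28 to 6.41). After every cell was thinned to 2000 UMIs, so that shares compare at 1 depth, a Wfdc2 UMI was left in 65.2% of cells in the wild type but in 83.1% in p63-KO. Thinning left out 88 wild-type and 24 p63-KO cells that were shallower. Without thinning these shares were 91.2% and 91.7%. Fibroblast-like cells of the p63-KO library, which should lack these genes, had a thinned share of 61 in 509.

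Cbr2, a carbonyl reductase known from lung, stood at 365 CPM (361 to 370) in wild-type cells. The p63-KO level was 907 CPM (899.9 to 914), 2.48-fold higher (2.45 to 2.52). Among thinned cells, 39.5% of the wild type had Cbr2, 57.9% of p63-KO, and 2.55% of fibroblast-like cells. At their own depths the order was reversed (84.1% and 79.5%), although the p63-KO cells were deeper, so the share of cells with Cbr2 is read only after thinning.

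Ltf, the iron-binding antimicrobial protein lactoferrin, showed the largest ratio of the 4 higher genes. Its wild-type level was 35.7 CPM (34.3 to 37.1) and its p63-KO level 305 CPM (301 to 309), 8.55-fold higher (8.204 to 8.92). An Ltf UMI occurred in 5.48% of cells in the wild type, against 57.2% in p63-KO. After thinning these shares were 1.84% and 22.7%, with 1.77% of fibroblast-like cells beside them. In the wild type the gene was held by few cells: the top 1% of thinned cells held 81.0% of its UMIs, against 20.1% in p63-KO. Without the wild-type superficial-like cells, which held most of them, the log2 ratio of p63-KO to wild type was 5.78 in place of 3.06.

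Cxcl17, a mucosal chemokine, was weakly counted in both libraries. The wild type gave 164 UMIs (2.39 CPM, 2.04 to 2.79) and p63-KO 1175 UMIs (16.2 CPM, 15.3 to 17.2), a 6.79-fold higher level (5.76 to 8.05). Shares of cells with a UMI were 2.01% and 31.8%, or 0.265% and 3.38% after thinning, against 0.196% of thinned fibroblast-like cells. The thinned wild-type share thus lay near the background of the other library.

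Cyp2f2, a cytochrome P450 that oxidises small aromatic compounds and is used as a club cell marker in mouse lung, was the most abundant of the 8 in the wild type. Its level was 1573 CPM (1563 to 1582) there, against 1424 CPM (1415 to 1432) in p63-KO, a ratio of 0.905 (0.898 to 0.913). Without the superficial-like cells of the wild type the log2 ratio turned from -0.14 to 0.12, and without the ciliated-like, neuroendocrine-like and ionocyte-like subclusters it was 0.06, so this small difference has no settled direction. Thinned cells with a UMI made up 84.0% of the wild type but 69.3% of p63-KO, against 2.95% of fibroblast-like cells. Cyp2f2 RNA was abundant in epithelium of both genotypes, and near-equal sums covered different spreads over cell states.

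Scgb3a2, a secretoglobin of the bronchiolar lining, was the measured gene called lower in p63-KO, where its level rested on a handful of UMIs. It had 558 UMIs in 280 wild-type cells (8.14 CPM, 7.48 to 8.84) and 2 UMIs in p63-KO (0.0276 CPM), so that the wild-type level was 294-fold that of p63-KO (81.1 to 2437). A single further p63-KO cell, removed as a doublet, held 37 of the library's 39 Scgb3a2 UMIs. With doublets kept, the p63-KO level was 0.521 CPM and the wild-type level 15.8-fold higher (11.4 to 22.4). That cell had 56778 UMIs, among them 231 of the mucin Muc5b, 9 of the ciliary regulator Foxj1, 83 of Cbr2, 77 of Cyp2f2, 2 of Scgb3a1 and 0 of the lung factor Nkx2-1. None of the 5 genes with over 1000 UMIs in p63-KO had so much in 1 cell: with doublets kept, the highest cell held 0.319% of the Wfdc2, 0.333% of the Cyp2f2, 0.413% of the Cbr2, 1.85% of the Ltf and 1.31% of the Cxcl17 UMIs.

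The remaining secretoglobins were not measurable at this depth. Scgb3a1 had 0 UMIs in the wild type, which allows up to 0.0437 CPM by the limit of 3 counts, and 8 UMIs in 8 p63-KO cells (0.111 CPM). Those 8 UMIs lay in mucous-like (3), proliferating-like (2), unnamed (2) and ciliated-like (1) cells. Scgb1a1 had 6 UMIs in 5 wild-type cells (0.0875 CPM) and 1 UMI in p63-KO (0.0138 CPM), with a counting interval of the ratio that runs from 0.768 to 291.

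**Figure D1:**
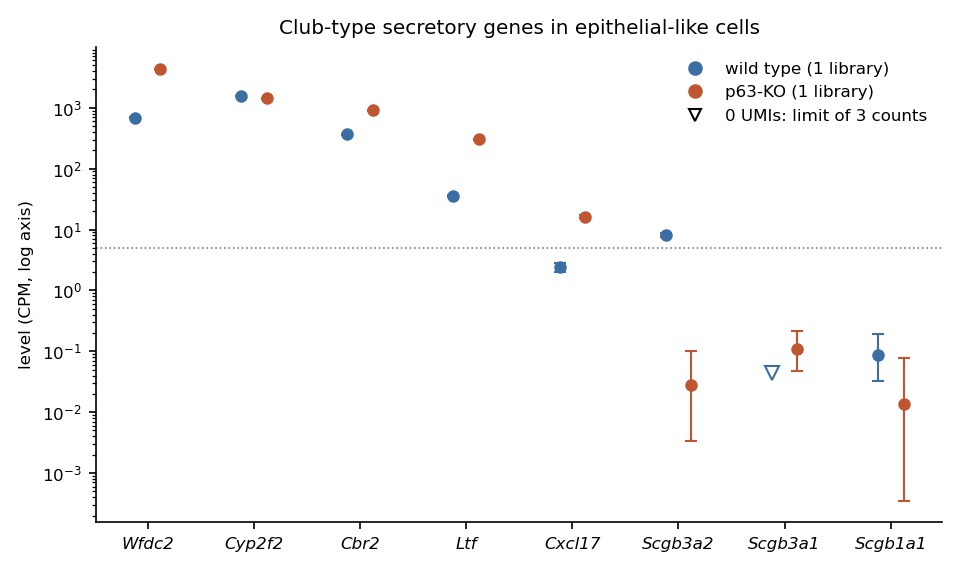
Level of each gene in epithelial-like cells of the wild-type (blue) and p63-KO (red) library, in CPM on a log axis, with exact 95% Poisson intervals; the dotted line is 5 CPM, and an open triangle marks 0 UMIs at the limit of 3 counts. Wfdc2, Cbr2, Ltf and Cxcl17 sit higher in p63-KO, Cyp2f2 stands at 1573 and 1424 CPM, and Scgb3a2 stands at 8.14 and 0.0276 CPM.

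The direction of each gene was the same in cells with Xist RNA only (3343 wild-type and 914 p63-KO cells) and in cells with Y-linked RNA only (1393 and 390 cells), which come from different embryos, except that Scgb3a2 was at 0 in the former. Wfdc2 was 5.64-fold and 7.86-fold higher in p63-KO, Cbr2 2.11-fold and 3.50-fold, Ltf 11.2-fold and 4.80-fold, and Cxcl17 5.03-fold and 11.4-fold. The ratio of Cyp2f2 was 0.884 and 0.776. Scgb3a2 had 10.1 CPM in wild-type cells with Xist RNA and 5.17 CPM in those with Y-linked RNA, against 0 and 1 UMI in p63-KO. Ltf in the wild type had 26.9 CPM (1149 UMIs) in cells with Xist RNA and 49.8 CPM (819 UMIs) in those with Y-linked RNA.

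RefSeq promoter windows (build GRCm38.p6, 250 bases before to 50 after a listed start of a gene) were listed for 5 of the 8 genes. The parts before the start that lie outside every annotated exon are shown, to set the genes that were higher in p63-KO (Wfdc2, Cbr2, Ltf) beside Cyp2f2, which was not, and Scgb3a1, which was hardly counted. Capitals mark matches to the searched letters: AGGAAG (ETS family), ACAAAG or ACAATG (Sox family), CCACTTG or CTCAAG (Nkx2-1), TGTTTAC or TATTTAC (forkhead) and TGAGTCA or TGACTCA (AP-1), each on both strands.
Wfdc2: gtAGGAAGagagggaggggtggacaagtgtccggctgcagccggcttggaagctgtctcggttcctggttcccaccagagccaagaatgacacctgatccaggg
Cbr2: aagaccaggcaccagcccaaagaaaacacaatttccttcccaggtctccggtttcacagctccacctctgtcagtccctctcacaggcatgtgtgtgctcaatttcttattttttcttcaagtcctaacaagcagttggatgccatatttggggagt
Ltf: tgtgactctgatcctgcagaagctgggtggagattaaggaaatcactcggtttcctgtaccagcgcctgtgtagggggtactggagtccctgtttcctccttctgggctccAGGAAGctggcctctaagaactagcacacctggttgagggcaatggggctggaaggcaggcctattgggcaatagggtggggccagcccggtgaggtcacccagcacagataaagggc
Cyp2f2: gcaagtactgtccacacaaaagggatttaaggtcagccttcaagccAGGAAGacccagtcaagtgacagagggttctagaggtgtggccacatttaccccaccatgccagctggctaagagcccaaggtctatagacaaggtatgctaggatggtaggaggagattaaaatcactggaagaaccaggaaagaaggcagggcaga
Scgb3a1: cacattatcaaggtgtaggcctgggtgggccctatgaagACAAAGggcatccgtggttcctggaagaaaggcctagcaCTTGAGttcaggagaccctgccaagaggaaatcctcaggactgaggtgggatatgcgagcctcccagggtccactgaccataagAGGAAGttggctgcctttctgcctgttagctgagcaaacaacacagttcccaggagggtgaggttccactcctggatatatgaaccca
These run 5′ to 3′ along the gene, at chr2:164562475-164562578 (plus strand), chr11:120732115-120732271 (minus), chr9:111019042-111019270 (plus), chr7:27119705-27119908 (plus) and chr11:49663345-49663594 (plus). The letters AGGAAG or their reverse were in all 5 windows and in 35.4% of all 32851 windows. The Cbr2 match (78 bases before the start), 1 of 2 Wfdc2 matches (87 before) and a further Scgb3a1 match (16 after) lay in parts not shown. Wfdc2 had 2 listed windows, of which the first was used. Its listed start lies inside the annotated gene, which begins at chr2:164562413. The Wfdc2 stretch shown is therefore sequence between exons and not upstream of the whole gene. The Sox letters (28.6% of all windows) and the Nkx2-1 letters (19.0%) were found in Scgb3a1 alone, and the forkhead (6.54%) and AP-1 (5.20%) letters in none of the 5. Windows of higher, level and hardly counted genes held the same ETS letters, and a match or its absence is only a description of these letters.

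Within the wild-type epithelium the genes were spread over different layers. The wild-type epithelial-like cells were divided into subclusters with the 8 genes kept out of the clustering, and named from fixed markers as basal-like (subclusters 1 and 5, 1950 cells), proliferating-like (3, 4 and 6, 1491 cells), suprabasal-like (7 and 10, 451 cells), superficial-like (8, 378 cells) and ciliated-like (11, 32 cells). Subclusters 9 and 2 (1067 cells) had basal as well as suprabasal markers and are called between. Taking suprabasal-like and superficial-like cells together over basal-like cells, 4 of 6 measured genes (Cyp2f2, Cbr2, Ltf and Cxcl17) were at least 2-fold higher, against 12.6% of all measured genes. Wfdc2 was at least 2-fold lower, against 27.5% of all measured genes. Without superficial-like subcluster 8 the count of higher genes was 2, Cbr2 and Cxcl17 no longer being called. Cbr2 was also under 2-fold with subclusters at resolution 1.0 (log2 ratio 0.94) and in cells with Y-linked RNA only (0.84), against 1.28 in all cells. At resolution 1.0 the genes called higher were Cyp2f2, Ltf and Scgb3a2 (log2 ratio 1.13), Cxcl17 being under 5 CPM there. Between superficial-like and basal-like cells alone, 4 of 6 were higher (13.6% of all measured genes) and 2, Wfdc2 and Scgb3a2, lower (32.4%), the Scgb3a2 call resting on basal-like subcluster 5, as given with that gene.

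Cyp2f2 RNA was higher in each successive layer from basal-like to superficial-like cells, leaving aside proliferating-like cells, which had less than basal-like ones. Its level was 909 and 851 CPM in the basal-like subclusters 1 and 5, 703 to 736 CPM in the proliferating-like ones, 1169 and 1895 CPM in the between subclusters 9 and 2, 2886 and 2305 CPM in the suprabasal-like subclusters 7 and 10 and 3478 CPM (3438 to 3518) in superficial-like cells. Among the proliferating-like subclusters the intervals of neighbours overlapped, and elsewhere in the order of the levels they did not. Upper layers stood 3.50-fold (3.44 to 3.56) above basal-like cells. Nearly all cells took part, since a UMI was found in 80.6% of thinned basal-like and 99.5% of thinned superficial-like cells.

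Wfdc2 took the opposite course. It was highest in the proliferating-like subclusters (1105, 1009 and 883 CPM) and the basal-like ones (959 and 832 CPM), had 649 and 305 CPM in the between subclusters 9 and 2, reached its lowest level of 200.1 CPM (190.3 to 210.2) in suprabasal-like subcluster 7, and stood at 444 CPM (430 to 459) in superficial-like cells. Superficial-like cells thus had 1.998-fold (1.89 to 2.11) the level of suprabasal-like cells, while basal-like cells had 2.82-fold (2.74 to 2.91) that of the upper layers together. Across the 9 wild-type subclusters with at least 50 cells, the log2 levels of Wfdc2 and Cyp2f2 had a Pearson r of -0.881; these points are cells of 1 library.

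Cbr2 was spread over all layers and highest at the surface. It had 254 and 376 CPM in the basal-like subclusters, 192 to 234 CPM in the proliferating-like ones, 529 CPM in suprabasal-like subcluster 7 and 902 CPM (881 to 922) in superficial-like cells. Subcluster 10, a group of 48 suprabasal-like cells led by Ifit1 and S100a2, had 189 CPM, which is below the basal-like level.

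Ltf RNA lay mostly in the superficial-like cells, where it was also the leading gene of the subcluster. It had 259 CPM (248 to 270) there, 23.5 and 29.3 CPM in the suprabasal-like subclusters and 0.433 to 1.36 CPM in every basal-like, proliferating-like and between subcluster. Superficial-like cells stood 10.7-fold (9.27 to 12.3) above suprabasal-like cells, where 2.98% of measured genes were at least 2-fold higher and 3.76% at least 2-fold lower. Cxcl17 was the other gene of the 8 called higher there and Scgb3a2, at 4.73-fold (3.01 to 7.76), the one called lower. Even there only 190 of 378 cells had an Ltf UMI, and the highest cell had 220.

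Cxcl17 was highest in the wild-type ciliated-like cells, at 22.9 CPM (14.8 to 33.8; 25 UMIs in 32 cells), followed by superficial-like cells at 11.1 CPM (8.95 to 13.6). The intervals of these neighbours did not overlap. Suprabasal-like cells had 1.996 CPM and basal-like cells 0.697 CPM. The ciliated-like level was 11.1-fold (6.95 to 17.1) that of the other epithelial-like cells, where 17.4% of genes were at least 2-fold higher. Ltf was 5.65-fold (2.74 to 14.1; 7 UMIs) lower in that comparison, as 8.08% of genes were at least 2-fold lower.

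Scgb3a2 followed no single layer. It was highest in basal-like subcluster 5, at 27.3 CPM (22.6 to 32.6), and in between subcluster 2, at 23.3 CPM (20.4 to 26.6), followed by suprabasal-like subcluster 7, at 14.0 CPM (11.5 to 16.9). The first 2 had overlapping intervals. The other basal-like subcluster, 1, had 0.704 CPM (0.338 to 1.30; 10 UMIs in 1478 cells), so that subcluster 5 stood 38.7-fold (20.3 to 82.8) above it. Between these basal-like subclusters 2.20% of genes were at least 2-fold higher in 5 and 1.84% at least 2-fold lower. Leaving out subcluster 5, the log2 ratio of the upper layers to basal-like cells was 2.41, against 0.17 with it, and Scgb3a2 was then called higher. With subclusters at resolution 1.0 Scgb3a2 was called higher as well (log2 ratio 1.13). Proliferating-like cells had 2.62-fold (1.88 to 3.71) less than basal-like cells, in a comparison where 4.10% of genes passed 2-fold upward and 0.399% downward. That direction rests on subcluster 5, which held 121 of the 131 basal-like Scgb3a2 UMIs. Against basal-like subcluster 1 alone, the level was 3.81-fold (1.91 to 8.42) higher in proliferating-like and 3.89-fold (1.78 to 9.16) higher in superficial-like cells. Subcluster 5 was led by Zbtb16, Inpp4b, Abi3bp, Edaradd and Tenm2, and its levels of Cyp2f2, Wfdc2 and Cbr2 lay within 1.48-fold of those of subcluster 1.

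The Scgb3a2 signal of the wild type came from a minority of cells in each of these subclusters. A UMI was found in 56 of 472 cells of subcluster 5 (11.9%), in 107 of 746 cells of subcluster 2 (14.3%) and in 60 of 403 cells of subcluster 7 (14.9%), against 5 of 1478 in subcluster 1 (0.338%), all at median depths of 9471 to 15922 UMIs. Of the 280 cells with a UMI, 107 had at least 2 and 21 at least 5, and the highest had 22. After thinning, 86.9% (75.8 to 94.2) of the 61 cells that kept a Scgb3a2 UMI had Cyp2f2, against 84.0% of the rest, 37.7% (25.6 to 51.0) had Cbr2, against 39.6%, and 54.1% (40.8 to 66.9) had Wfdc2, against 65.4%. None of the 61 had Ltf or Cxcl17, with an exact interval that reaches 5.87%, against 1.86% and 0.268% of the rest.

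**Figure D2:**
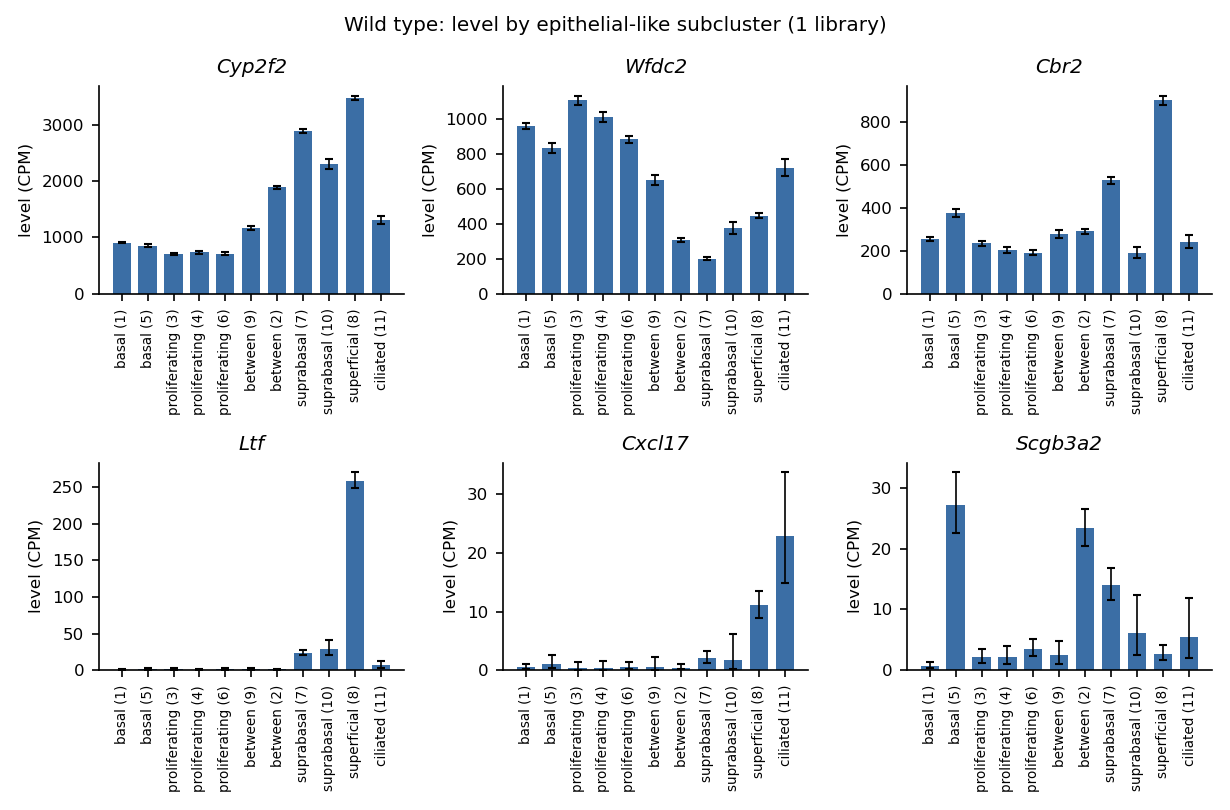
Level of 6 genes (CPM, linear axes from 0) in each wild-type epithelial-like subcluster, ordered from basal-like to superficial-like with ciliated-like last; error bars are exact 95% Poisson intervals over the summed cells of 1 library. Cyp2f2 is highest in superficial-like cells (3478 CPM), Wfdc2 is lowest in suprabasal-like subcluster 7 (200.1 CPM), and Scgb3a2 peaks in subclusters 5 and 2.

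In the p63-KO library, Wfdc2, Cyp2f2, Cbr2 and Ltf had their lowest levels in the same states, neuroendocrine-like cells and ionocyte-like subcluster 7. Among the other states their orders differed. The p63-KO epithelial-like cells fell into 11 subclusters, named suprabasal-like (2, 253 cells), proliferating-like (3, 214), mucous-like (5, 183), ciliated-like (10, 55), ionocyte-like (7 and 9, 170) and neuroendocrine-like (4, 8 and 11, 346), with 1 and 6 unnamed. Subcluster 1 (284 cells) was led by Wif1 and Cryab. Subcluster 6 (178 cells, median 86964 UMIs) was led by the smooth muscle genes Tagln and Myh11, although its 8 smooth muscle or pericyte markers summed to 68.6 CPM, against 39030 CPM in smooth muscle or pericyte-like cells.

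Wfdc2 was high in 7 of the 11 p63-KO states. It had 5924 CPM (5872 to 5976) in suprabasal-like, 5793 CPM in mucous-like, 4821 and 4465 CPM in the unnamed, 4351 CPM in ciliated-like, 4328 CPM in proliferating-like and 3864 CPM in ionocyte-like subcluster 9. Ionocyte-like subcluster 7 had 1652 CPM and neuroendocrine-like subcluster 8 had 1619 CPM, with overlapping intervals. Even these last values exceeded the highest wild-type subcluster (1105 CPM), whereas neuroendocrine-like subclusters 4 and 11 had 105 and 51.8 CPM.

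Cyp2f2 ranged from 1018 to 1950 CPM in the same 7 states, with its highest level in suprabasal-like cells (1950 CPM, 1920 to 1979). It had 94.8 CPM in ionocyte-like subcluster 7, 303 CPM in neuroendocrine-like subcluster 8, and 22.2 and 21.03 CPM in neuroendocrine-like subclusters 4 and 11. Every wild-type layer, by contrast, had at least 703 CPM. No p63-KO state reached the 3478 CPM of wild-type superficial-like cells.

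Cbr2 and Ltf were both highest in mucous-like and suprabasal-like cells. Cbr2 had 1482 and 1405 CPM there, against 660 to 1025 CPM in the 5 other states that were rich in Wfdc2, and 33.0 CPM in ionocyte-like subcluster 7. Ltf had 686 CPM (669 to 703) in mucous-like and 524 CPM (509 to 540) in suprabasal-like cells, 217 to 327 CPM in proliferating-like, ciliated-like, ionocyte-like 9 and unnamed 6, and 73.9 CPM in unnamed subcluster 1. Relative to subcluster 1, Ltf was 9.28-fold (8.54 to 10.1) higher in mucous-like cells, where 5.16% of genes passed 2-fold upward and 2.72% downward. It was 7.09-fold (6.52 to 7.73) higher in suprabasal-like cells, where 1.38% were higher and 2.21% lower. Ltf was the one gene of the 8 called in either comparison.

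Cxcl17 departed from the pattern shared by Wfdc2, Cyp2f2, Cbr2 and Ltf. Its highest level was 78.3 CPM (67.9 to 89.8) in ionocyte-like subcluster 7, a state led by Tmprss11e and Trpm3, followed by ciliated-like (29.2 CPM) and ionocyte-like subcluster 9 (27.7 CPM), whose intervals overlapped. Subcluster 7 passed 7 ionocyte markers but also 5 proliferating markers and 1 ciliated marker, whereas subcluster 9 passed 7 ionocyte markers only. The peak is therefore given for subcluster 7 and not for ionocyte-like cells as a whole. Compared with unnamed subcluster 1, subcluster 7 had 9.52-fold (7.199 to 12.7) more Cxcl17, a direction in which 15.6% of genes were called, and less of Wfdc2 (2.92-fold), Ltf (6.21-fold), Cyp2f2 (16.5-fold) and Cbr2 (27.2-fold), a direction in which 13.9% were called. After thinning, a Cxcl17 UMI was found in 12.7% of its cells, against 0.196% of fibroblast-like cells. Across the 10 p63-KO subclusters of at least 50 cells, the log2 levels of Cyp2f2 had a Pearson r of 0.939 with Wfdc2 and 0.985 with Cbr2, but 0.313 with Cxcl17; the points are again clusters of 1 library, and the low neuroendocrine-like states enter all of these values.

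**Figure D3:**
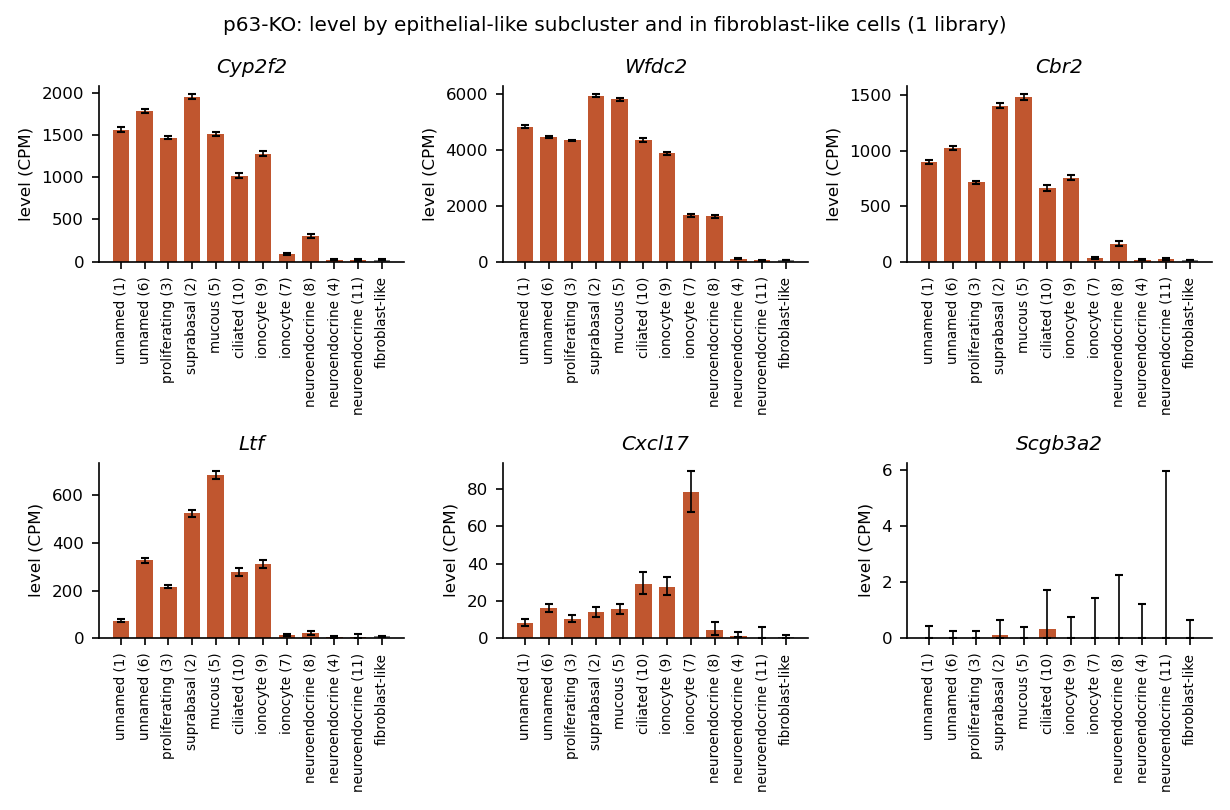
Level of 6 genes (CPM, linear axes from 0) in each p63-KO epithelial-like subcluster (red) and in p63-KO fibroblast-like cells (grey), with exact 95% Poisson intervals. Cyp2f2, Wfdc2, Cbr2 and Ltf are low in ionocyte-like subcluster 7 and in neuroendocrine-like subclusters, where Cxcl17 peaks in subcluster 7 at 78.3 CPM, and Scgb3a2 has 1 UMI in each of 2 subclusters.

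RNA of these genes counted in fibroblast-like cells sets a lower bound for reading these levels. Whether it was free RNA in the droplets was not tested. Fibroblast-like cells of the p63-KO library had 21.1 CPM of Cyp2f2, 59.9 CPM of Wfdc2, 14.1 CPM of Cbr2, 6.98 CPM of Ltf and 0.524 CPM of Cxcl17. That is 1.48%, 1.37%, 1.56%, 2.29% (1.63 to 3.12) and 3.23% (0.664 to 9.45) of the level in epithelial-like cells, the Cxcl17 value resting on 3 UMIs. Epithelial keratins stood in about the same ratio as Cyp2f2, Wfdc2 and Cbr2, with 1.51% for Krt15 and 1.33% for Krt13. The Ltf ratio lay above these. The Cyp2f2, Cbr2 and Ltf levels in neuroendocrine-like subclusters 4 (22.2, 17.3 and 4.58 CPM) and 11 had intervals that overlapped those of fibroblast-like cells and are read as background, as is Ltf in ionocyte-like subcluster 7, found in 1.96% of thinned cells against 1.77%. Wfdc2 in subcluster 4 (105 CPM, 94.1 to 117) and in subcluster 7 lay above it. In the wild type, 10 fibroblast-like cells with 48819 UMIs held 1 UMI each of Cyp2f2, Wfdc2 and Cxcl17, too few for such a comparison.

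**Figure D4:**
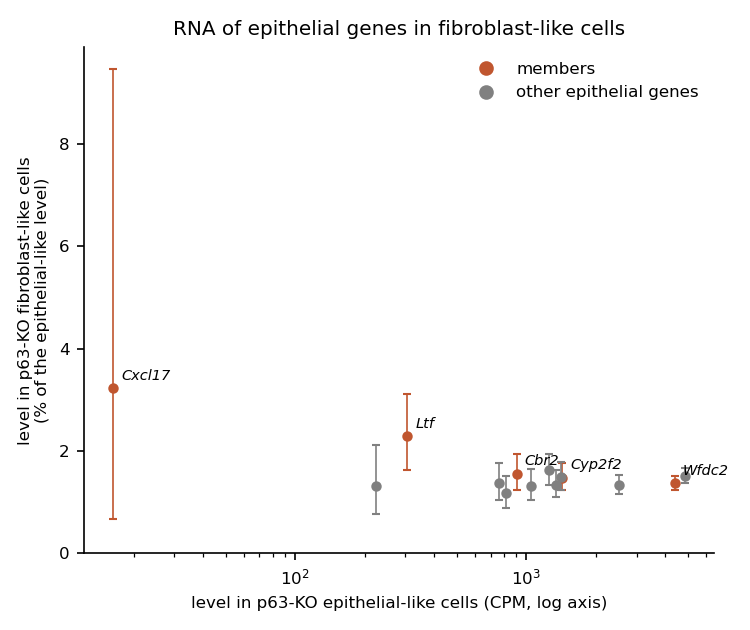
Level in p63-KO fibroblast-like cells as a percent of the level in p63-KO epithelial-like cells, for 5 of the 8 genes (red) and 9 other epithelial genes (grey), against the epithelial-like level on a log axis; bars are exact 95% intervals. The genes lie between 1.37% and 3.23%, and the other epithelial genes between 1.17% and 1.62%.

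States that carried the same name in both libraries can be set side by side, although they came from different clusters. In suprabasal-like cells (wild-type subclusters 7 and 10, p63-KO subcluster 2), Wfdc2 was 26.7-fold (25.5 to 27.9) higher in p63-KO, with 222 and 5924 CPM, Ltf 21.6-fold, Cxcl17 6.95-fold and Cbr2 2.89-fold, in a comparison in which 15.8% of genes were at least 2-fold higher. Cyp2f2 had a ratio of 0.693. Scgb3a2 had 117 UMIs against 1, and 8.71% of genes were at least 2-fold lower. In ciliated-like cells (32 and 55 cells), Wfdc2 was 6.04-fold (5.62 to 6.495) and Cbr2 2.73-fold (2.40 to 3.12) higher. Ltf was 43.3-fold (20.9 to 108) higher, on 7 wild-type UMIs. In this comparison 11.4% of genes passed 2-fold upward and 7.54% downward. Scgb3a2 had 1 UMI there against 6 in the wild type, and Cxcl17 had a ratio of 1.28 (0.815 to 2.07). A Cxcl17 difference in ciliated-like cells was not detectable at this depth.

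Some of the excess depended on which layer was set against p63-KO. Compared with the wild-type superficial-like cells, p63-KO suprabasal-like cells had 13.3-fold (12.9 to 13.8) more Wfdc2 and 2.03-fold (1.93 to 2.13) more Ltf, with 19.5% of genes at least 2-fold higher and 8.46% lower. Cbr2 (1.56-fold), Cxcl17 (1.25-fold, 0.947 to 1.66) and Cyp2f2 (0.561) were within 2-fold in that comparison. Compared with wild-type basal-like cells, p63-KO unnamed subcluster 1 had 5.19-fold (5.10 to 5.28) more Wfdc2 and 3.17-fold more Cbr2. It had 98.4-fold (58.2 to 181) more Ltf and 11.8-fold (6.46 to 23.3) more Cxcl17, with 14.5% of all measured genes at least 2-fold higher. The wild-type basal-like cells held only 14 Ltf UMIs (0.751 CPM) and 13 Cxcl17 UMIs (0.697 CPM). The size of the Ltf and Cxcl17 folds thus rests on few counts near the floor. Scgb3a2 had 0 UMIs in subcluster 1 against 131 in wild-type basal-like cells, at least 19.4-fold lower (3 counts over the summed cells), where 1466 of 11272 measured genes were lower by the 2-fold rule. Wfdc2 was higher in all 4 of these pairings of states, and Cyp2f2 was within 2-fold in all 4.

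Several of the genes were also found more often in the same p63-KO cell. Wfdc2, Cbr2, Ltf and Cxcl17 each had a larger thinned share of cells in p63-KO, which by itself raises such counts, while Cyp2f2 had a smaller one. Whether the genes met more often than their single shares give was not tested. After thinning, at least 3 of the 8 genes were found in 22.9% (21.8 to 24.1) of wild-type and 57.5% (55.1 to 59.9) of p63-KO epithelial-like cells, and at least 4 in 0.738% and 18.9%. The share with at least 3 was highest in p63-KO unnamed subcluster 6 (89.3%), suprabasal-like (85.3%) and mucous-like (82.0%) cells, and lowest in neuroendocrine-like cells (1.17%). In the wild type it was highest in superficial-like (33.4%) and basal-like (27.1%) cells and lowest in suprabasal-like cells (14.4%). None of 509 fibroblast-like cells had 3. In p63-KO, 82.4% of cells with Wfdc2 had Cyp2f2, against 4.98% of cells without it. Of the 281 cells without Wfdc2, 267 were neuroendocrine-like, so these shares mostly compare states; within neuroendocrine-like cells they were 17.6% (9.70 to 28.2) and 4.49% (2.34 to 7.72). In the wild type these shares were 80.4% and 90.9%, and within basal-like cells alone 80.2% and 81.9%.

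**Figure D5:**
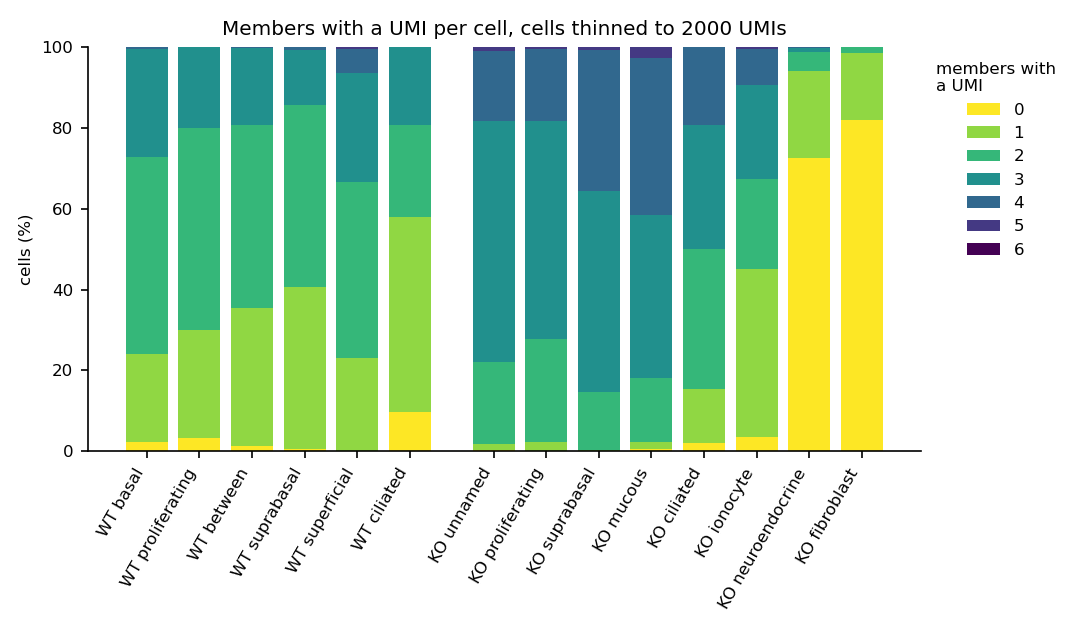
Number of the 8 genes with at least 1 UMI per cell, as percent of cells in each state, after thinning every cell to 2000 UMIs; wild-type (WT) states are on the left, p63-KO (KO) states and fibroblast-like cells on the right. Cells with 4 or more of the genes are common in p63-KO mucous-like (41.5%) and suprabasal-like (35.7%) cells and reach 6.37% in wild-type superficial-like cells.

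Genes with the most similar pattern were listed for each library. Across 9 wild-type subclusters, Cyp2f2 was closest to Ctsd, Taok3 and Mgat3 (Pearson r 0.995, 0.995 and 0.993), Wfdc2 to Tmem184b, Tbc1d1 and Kit (0.981, 0.978 and 0.973), Cbr2 to Nr2f2, Dhrs3 and Rnf152 (0.985, 0.983 and 0.979), Ltf to Spns3, Ifi204 and Mavs (0.995, 0.994 and 0.993), and Scgb3a2 to Flvcr1, Klf12 and Ppfibp1 (0.963, 0.888 and 0.863). Across 10 p63-KO subclusters, Cyp2f2 was closest to Foxq1, Atp10b and Plaur (0.998, 0.998 and 0.997), Wfdc2 to Mlph, Tent5b and Ctsh (0.996, 0.995 and 0.992), Cbr2 to Tmem40, Wfdc15b and Gsto1 (0.998, 0.996 and 0.995), Ltf to Upk2, Psapl1 and Slc6a14 (0.993, 0.987 and 0.987), and Cxcl17 to Kazn, Hspa1a and Wdr72 (0.971, 0.971 and 0.956). None of these genes was named in both libraries for the same member. These r values describe clusters of 1 library each and choose the best of 8197 and 9448 genes.

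Other genes of airway secretory cells moved in part with the 4 higher genes. Of 39 such genes in the files 22 were measured, 9 of them higher by the same 2-fold rule and 3 lower. Among all measured genes 15.0% were higher and 8.84% lower. The median log2 ratio of the 22 was 0.73. Muc5b, a gel-forming airway mucin, had 3 UMIs in the wild type (0.0437 CPM) and 128 CPM in p63-KO, Chad had 0.233 and 32.0 CPM, Aldh1a1, a retinal-oxidising enzyme, had 2.16 and 35.9 CPM, and Lypd2 had 199 and 1592 CPM. Gsta4 and Gsto1, glutathione transferases, were abundant in both, at 532 and 759 CPM and at 3557 and 6031 CPM. The lower ones were Cyp2a5, Upk3a and Pir, and the other 10 measured genes were within 2-fold.

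Relatives of single members by function went different ways. The counts below stand beside 15.0% of all measured genes at least 2-fold higher in p63-KO and 8.84% at least 2-fold lower. Of 7 measured genes of WAP-domain and secreted protease inhibitors, none was at least 2-fold higher and 2 were lower: Csta1, a cysteine protease inhibitor, had 92.2 and 0.332 CPM, and Wfdc5 5.02 and 0.221 CPM. Spint2 had 582 and 1051 CPM. Wfdc2 therefore had no measured relative in that list with a 2-fold excess. With only 7 genes, none higher lies near the share among all measured genes. Among 12 measured antimicrobial and mucosal defence genes, 8 were higher (Lcn2, Lyz2, Camp, Chil4, S100a8, S100a9, Clu and Pglyrp1), 4 of which also stand on the neutrophil list given further on. The 3 lower ones were Duoxa1 (43.4 and 0.594 CPM) and Duox1 (25.6 and 0.290 CPM), parts of the peroxide-forming oxidase, and Defb1, a defensin, which had 15.3 CPM in the wild type and 0 UMIs in p63-KO, at least 370-fold lower against 3 counts over the summed cells. Of 4 measured chemokine-list genes, Cx3cl1 (6.58 and 30.8 CPM) and Cxcl16 (3.50 and 14.0 CPM) were higher, as Cxcl17 was, and Ccl25 had 17.7 and 16.8 CPM.

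The enzyme and transcription factor lists held no common direction. Of 23 measured carbonyl reductases and xenobiotic oxidases, 4 were higher and 3 lower (median log2 ratio 0.09). These counts lie near the shares among all measured genes, 15.0% higher and 8.84% lower. Dcxr, a carbonyl reductase like Cbr2, had 35.8 and 188 CPM, and Cyp2a5, a P450 like Cyp2f2, had 17.8 and 1.80 CPM. Of 24 measured transcription factors of secretory and airway cells, 6 were higher and 3 lower (median log2 ratio 0.09). Creb3l1 had 1.88 and 528 CPM, Spdef, a factor of mucous cells, had 0.379 and 24.9 CPM, and Cebpd had 7.55 and 74.0 CPM, while Klf5 had 662 and 772 CPM and Nfib 419 and 815 CPM.

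Markers of other cells that express these genes were counted in the same epithelial-like cells. Ltf is also a neutrophil granule gene, and of 10 neutrophil markers 5 were measured. All 5 (Ngp, Camp, S100a8, S100a9 and Lcn2) had at least 2-fold more RNA in p63-KO, against 15.0% of all measured genes. Their list of 10 summed to 47.5 CPM in p63-KO, with 0 UMIs of Elane. The summed level was 184.6 CPM in proliferating-like subcluster 3 and 3.45 to 32.6 CPM elsewhere, with 6.31 CPM in mucous-like and 7.47 CPM in suprabasal-like cells, the states where Ltf was highest. Ltf without subcluster 3 had a log2 ratio of 3.17, against 3.06 with it. The part of neutrophil RNA in the Ltf result was not tested further.

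Macrophages can express Cbr2. None of 10 macrophage markers was measured in epithelial-like cells, their sum was 11.3 CPM in p63-KO, and the 18 immune-like cells of that library had 100.2 CPM of Cbr2, less than the epithelial-like cells. Of 10 lung or trachea markers, Nkx2-1 had 6 UMIs in the wild type and 0 in p63-KO, and Sftpa1 had 0 in both. The 2 measured ones, Hopx (520 and 56.8 CPM) and Foxp2 (45.9 and 21.5 CPM), were lower in p63-KO. Among the unmeasured ones, Sftpd (0 and 3.43 CPM), Napsa (0.117 and 0.636), Irx1 (0.0583 and 0.4975) and Sftpc (0.802 and 1.11) were higher in p63-KO. Sftpb (0.131 and 0.0553 CPM) was lower, and Lamp3 had 1 UMI and 0. Subclusters 6, led by smooth muscle genes, and 9, ionocyte-like, had the highest median UMI counts of the p63-KO subclusters (86964 and 71473); without both, the counts were again 4 higher and 1 lower. Of 10 salivary or submucosal gland markers, the measured ones were Aqp5 (0.102 and 34.0 CPM) and Bhlha15 (0.102 and 5.32 CPM), both higher in p63-KO, while Bpifa2 was at 0 in both, and none of 10 stomach markers was measured.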

How the data were processed

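Gene-by-cell UMI counts of 2 libraries, 1 per group, were used as deposited; per the labels they come from 10x Single Cell 3' libraries, and per the submitters' processing notes from Cell Ranger 7.1.0 and mm10. The sources used here do not give the annotation release or how intronic reads were treated. Kept cells had at least 500 genes and 1000 UMIs, with mitochondrial UMIs at or below 10%, and doublets (0.8% per 1000 cells) were removed by a simulated-doublet score. Cells were clustered (2000 variable genes without the 8 members, 30 principal components, Leiden resolution 1, epithelial-like cells again per library at 0.6) and named from at least 3 markers.

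UMIs were summed per library or subcluster and given as CPM with exact Poisson intervals. Ratios have exact conditional binomial intervals and shares Clopper-Pearson ones. Log2 ratios use a pseudocount of 1 CPM. A gene was measured from 5 CPM and called at 2-fold. With 1 library per group no test was made. Named genes are the 8 members, up to 3 measured genes per list with the largest log2 ratio or from 500 CPM, and the 3 most similar genes per member. Members and lists were chosen with earlier results of these data known, and the naming thresholds and contrasts of states after the data were seen. Alternatives covered filters, doublets, depth, scaling, clustering and left-out subclusters. The scripts were tested on simulated data and used Python 3.11.15, numpy 2.4.6, scipy 1.17.1, pandas 2.3.3, scikit-learn 1.9.0, leidenalg 0.10.2 and igraph 0.11.9.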

Additional observations from a re-analysis of the deposited data

Results flagged for a closer look

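Cxcl17 was counted in p63-KO droplets that entered none of the comparisons. In the 399 p63-KO barcodes below the cell filter it had 33.73 CPM (99 UMIs), against 4.454 CPM (2 UMIs) in the 247 wild-type ones. In the 17 p63-KO cells of an unnamed cluster of low depth it had 144.5 CPM, which rests on 7 UMIs, against 0 UMIs in 138 wild-type cells of that cluster.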

How the results depend on the processing

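Across 16 alternatives to the comparison of libraries, the count of genes at least 2-fold higher in p63-KO was 3 to 4. The count of lower genes was 1, except 0.0 when genes were measured from 20 CPM, which leaves Scgb3a2 untested. Log2 ratios ranged from 2.4 to 2.97 for Wfdc2, 1.08 to 1.81 for Cbr2, 2.24 to 5.78 for Ltf, 1.52 to 2.98 for Cxcl17, -3.47 to -1.39 for Scgb3a2 and -0.37 to 0.12 for Cyp2f2. Across 10 alternatives for the wild-type layers the count of higher genes was 2 to 5, the lowest being 2.0 without wild-type subcluster 8, and 3 at resolution 1.0, in cells with Y-linked RNA only and after thinning; the alternatives that leave out a subcluster were added after seeing the data. No paired analysis was possible because each group had 1 library. Scgb3a1 and Scgb1a1 were too few to compare at this depth.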

Other observations

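Wfdc2 was also abundant in p63-KO droplets outside the comparisons, with 2452 CPM (7197 UMIs) in barcodes below the cell filter and 2065 CPM (100 UMIs) in the unnamed cluster of low depth, against 338.5 and 624 CPM in the wild type.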
